A study of Homo sapiens with 16 samples.

Results

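The late response of OVCAR3 cells to vitamin D hormone is described here from 6 of the 16 arrays of the series, namely 3 arrays of cells kept for 72 h with 1,25-dihydroxyvitamin D3 (1,25(OH)2D3) and 3 arrays of cells given vehicle only. They were chosen by their labels, and all are Affymetrix U133A arrays, which carry 11963 genes with a probe set of their own. OVCAR3 is an established line from a human ovarian carcinoma, so the results describe 1 cell line. The cells grew in medium with fetal bovine serum and bovine insulin. The treated group received the hormone, dissolved in ethanol, at 0.1 pM as the series' text gives it, a unit the arrays cannot check. Vehicle cells received no hormone (0 h) but the same ethanol for the same length of time. Additions were staggered, so that all cells of an experiment were harvested together, and the arrays come from 3 independent experiments. A vehicle and a 72 h array of the older U95 type, from an earlier set of treatments, serve as a check without replicates, and the 3 U133A arrays of 24 h are used for the change after the first day.

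1,25(OH)2D3 is the hormonal form of vitamin D. It binds the vitamin D receptor, VDR, a nuclear receptor that pairs with a retinoid X receptor and acts on genes through response elements in DNA. The same hormone switches on CYP24A1, the mitochondrial enzyme that breaks it down, and in epithelia it is known for calcium transport, antimicrobial peptides, slower growth and differentiation.

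After 72 h, the vitamin D breakdown enzyme CYP24A1, the calcium channel TRPV6, filaggrin, the collagens COL4A1 and COL4A2 and the ligand WNT11 were among the genes that rose. The chemokines CCL20 and CXCL2, the interferon-induced IFITM1 and the receptors EGFR and TGFBR2 were among those that fell. Of 7178 genes above a filter on low signals, 277 rose and 214 fell, which is 3.86% and 2.98% of all genes tested, or 6.84% in either direction (limma, Benjamini-Hochberg adjusted p under 0.05). Signals are MAS5 values, the summary that Affymetrix software gives for the probes of a gene, in arbitrary units that are not compared between genes. Changes are log2 differences between group means, so that 1 stands for a 2-fold difference, and their standard error is written SE. By this measure 77 genes rose and 39 fell at least 2-fold, and 12 and 5 changed by at least 2 log2 units. The typical called gene moved less, with a median of 0.72 for the rises and 0.61 for the falls. All 277 genes that rose, and 213 of the 214 that fell, had 72 h signals that did not overlap the vehicle signals. Of all genes tested 11.7% lay wholly above and 12.7% wholly below. The calls rest on these same signals, so the lack of overlap largely follows from the selection and is no separate support. Without vehicle replicate 1, 2 or 3 the number that fell was 119, 142 or 130, and 159 of the 277 and 91 of the 214 passed whichever of the 6 arrays was left out.

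**Figure D1:**
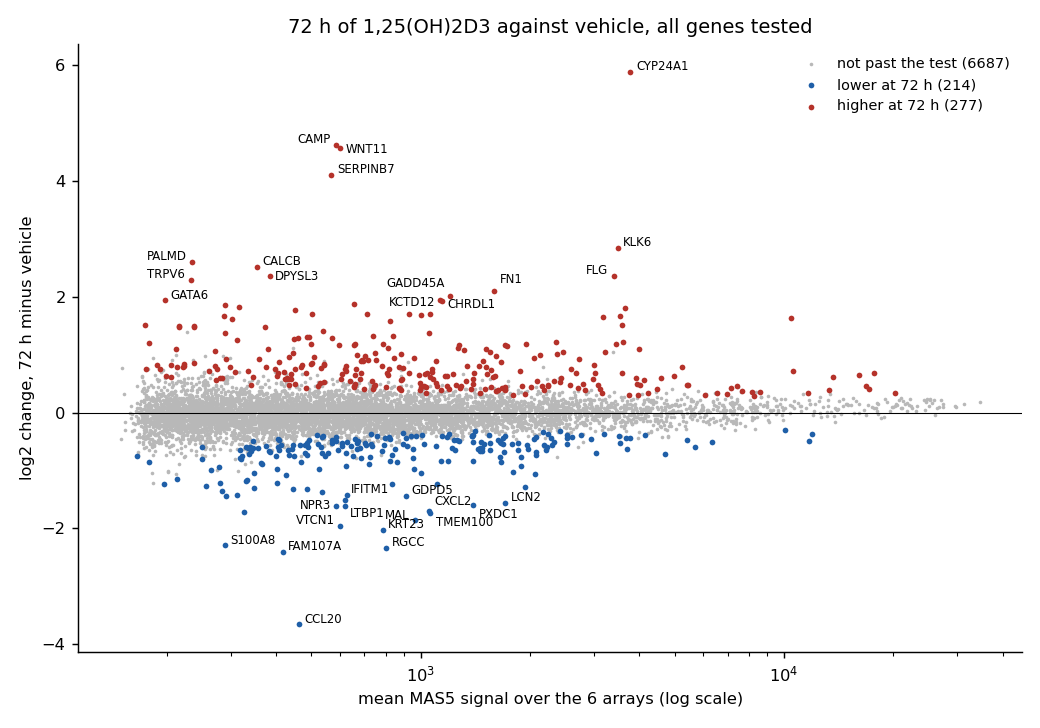
Log2 change at 72 h against vehicle (vertical axis) by the mean MAS5 signal over the 6 arrays (horizontal axis, log scale), 1 point for each of 7178 genes; red points rose, blue points fell and grey points did not pass the test. CYP24A1, with a change of 5.89, stands highest and CCL20, with -3.66, lowest.

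The arrays were close in overall signal. Median signals lay between 168 and 196 on the 6 arrays. Over log2 signals, pairs of vehicle arrays correlated at 0.973 to 0.976 and pairs of 72 h arrays at 0.964 to 0.968. Pairs across the groups correlated at 0.958 to 0.967, so the 72 h arrays were hardly closer to each other than to vehicle arrays. Control probe sets for the 3' end of GAPDH, over those for its 5' end, gave log2 values from -0.17 to -0.047 in vehicle and from -0.042 to 0.011 at 72 h, so that all treated arrays lay above all vehicle arrays, and its part in the results was not tested. For ACTB the groups overlapped, at 0.075 to 0.24 and 0.048 to 0.18. Replicates spread somewhat more at 72 h, where the median SD of a gene was 0.18 log2 units against 0.13 in vehicle. All 14 markers of ovarian carcinoma epithelium were on the array and above the filter on low signals. Of these 4 passed the test: WT1, KRT7 and CDH1 rose and KRT18 fell. The summed signal of the 14, which can hide opposite changes, was 53206 to 61149 in vehicle and 55908 to 61009 at 72 h. Of the fibroblast, leukocyte and endothelial markers on the array, 4 of 10, 1 of 10 and 1 of 9 were above the filter, 0 passed the test, and the summed signals of each list overlapped between the groups (fibroblast 1610 to 1679 and 1557 to 1636, leukocyte 882 to 1109 and 872 to 983, endothelial 438 to 669.7 and 437 to 629). In whole-culture RNA, fewer cells with a transcript and less transcript per cell cannot be told apart.

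The pair of largest rises were in genes known as direct targets of VDR. CYP24A1 gave signals, in the order of replicates 1 to 3, of 56.4, 84.1 and 247 in vehicle and 7486, 8808 and 5995 at 72 h (log2 change 5.89, SE 0.33, adjusted p = 1.4e-08). The antimicrobial peptide gene CAMP, the source of cathelicidin, gave 26.7, 32.7 and 33.2 in vehicle and 1262, 1029 and 1124 at 72 h (log2 change 4.63, SE 0.20, adjusted p = 1.6e-09). In both genes every treated array lay far above every vehicle array, and vehicle replicate 3 was the highest of the vehicle arrays for CYP24A1. Where vehicle signals are this low the log2 change depends on the number added before the logarithm: with 1 in its place it was 6.11 for CYP24A1 and 5.16 for CAMP, and with 4 times the number used, 5.39 and 3.67.

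KLK6, a secreted serine protease, rose from 798, 907 and 782 to 6351, 4963 and 7095 (log2 change 2.85, SE 0.14, adjusted p = 3.9e-09). GADD45A, a growth arrest gene whose response the study required by Northern blot before arrays were run, so that its rise here is no independent result, stood at 571, 403 and 432 in vehicle and 2220.2, 1631 and 1976 at 72 h (log2 change 2.02, SE 0.15, adjusted p = 3.2e-07). DUSP10, a phosphatase that switches off the stress kinases p38 and JNK, stood at 229, 258 and 337 in vehicle and 998, 994 and 1122 at 72 h (log2 change 1.87, SE 0.13, adjusted p = 2.0e-07). The 3 treated arrays were above the 3 vehicle arrays for each of these genes, and the treated arrays were close together for DUSP10. Log2 changes of KLK6 at 8, 24 and 72 h were 1.39, 2.49 and 2.85, and those of DUSP10 were 1.54, 2.08 and 1.87. These comparisons share the vehicle arrays.

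In all, 11 of 22 tested VDR targets rose and 1 fell, of 33 on the array. Their median log2 change was 0.55, against -0.01 over all genes tested, of which 3.86% rose and 2.98% fell. The list was chosen with earlier results of these data known, so its count is no separate support. Besides the genes above, the rises were in the calcium channel TRPV6, the protease inhibitor SERPINB1 (log2 change 1.32, adjusted p = 3.6e-06), the nuclear receptor corepressor NRIP1 (log2 change 1.18, adjusted p = 5.2e-04), the lipase inhibitor G0S2 (log2 change 0.93, adjusted p = 0.0010), the transcription factor CEBPB (log2 change 0.72, adjusted p = 1.7e-04) and the redox enzyme TXNRD1 (log2 change 0.60, adjusted p = 1.7e-04). CEBPB had a log2 change of 0.81 at 8 h, 0.89 at 24 h and 0.72 at 72 h. S100A8, a calcium-binding alarmin of inflamed epithelia, was the member that fell, from 602, 440.3 and 429 to 62.1, 92.4 and 110.0 (log2 change -2.29, SE 0.24, adjusted p = 1.7e-05). Its arrays did not overlap between the groups.

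The receptor itself and its partners gave a different picture from the targets. Of 16 genes for the hormone's metabolism and for the receptor's complex, 11 were tested and 1 rose, CYP24A1, and 0 fell (median log2 change -0.085). VDR had signals of 467, 348 and 428 in vehicle and 342, 304 and 364 at 72 h, which overlap, and missed the threshold (log2 change -0.28, SE 0.14, adjusted p = 0.30). The uptake receptor LRP2 stood at 308 ± 58.8 and 199 ± 50.0 (mean ± SD, n = 3, adjusted p = 0.097), and the coactivator NCOA2 at 855 ± 33.9 and 733 ± 62.7 (adjusted p = 0.26).

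Calcium handling moved at entry and exit. TRPV6, the apical calcium channel of absorbing epithelia, gave 93.9, 115 and 19.4 in vehicle and 554, 295 and 317 at 72 h (log2 change 2.29, SE 0.38, adjusted p = 0.0012). ATP2B4, a pump that carries calcium out of the cell, gave 1043, 1241 and 962 in vehicle and 2047, 2289 and 2066 at 72 h (log2 change 0.98, SE 0.13, adjusted p = 1.9e-04). Vehicle replicate 3 was the lowest array for both genes and no treated array reached down to a vehicle value. They were 2 of 11 tested genes of epithelial calcium transport that rose, and 0 fell (median log2 change -0.025). The related pump ATP2B2 (381 ± 39.2 to 261 ± 68.0) and the calcium release channel ITPR2 (247, 119 and 246 against 78.9, 143 and 199) did not pass (adjusted p = 0.17 and 0.40). In the calcitonin family of peptides, 2 of the 3 tested members of 9 on the array rose. CALCB, a calcitonin gene-related peptide, went from 91.8, 92.5 and 96.5 to 639, 502 and 708 (log2 change 2.52, SE 0.20, adjusted p = 7.8e-07). Adrenomedullin, ADM, which widens vessels, went from 495, 502 and 402 to 845, 926 and 1039.5 (log2 change 0.98, SE 0.17, adjusted p = 0.0015). Both sets of arrays were apart, and RAMP3, a helper of their receptors, stood at 217 ± 51.9 and 211 ± 70.0 (adjusted p = 0.92).

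Markers of stratified epithelium changed in both directions. FLG encodes filaggrin, the protein that packs keratin filaments in the outer skin, and gave 948, 1176 and 1155 in vehicle and 6075, 4911 and 6121 at 72 h (log2 change 2.37, SE 0.14, adjusted p = 3.9e-08). Its lowest treated signal was several times the highest vehicle signal. It was 1 of 11 tested epidermal differentiation genes that rose while S100A8 fell (median log2 change 0.21). The envelope protein PPL (1064, 1409 and 1065 against 1975, 1375 and 1361, adjusted p = 0.13) and the transcription factor GRHL2 (699, 795 and 847 against 567, 557 and 548, adjusted p = 0.071, or 0.040 with only the 6 arrays in the fit) missed the threshold. Among 8 tested keratins 1 rose and 2 fell (median log2 change -0.26). KRT23 fell from 1224, 1174 and 1401 to 248, 256 and 418 (log2 change -2.02, SE 0.17, adjusted p = 1.4e-06). KRT7, a keratin of simple glandular epithelium, stood at 4323, 4369.7 and 4896 in vehicle and 6874, 5324 and 6884 at 72 h (log2 change 0.48, adjusted p = 0.0078). KRT18, of the same kind of epithelium, stood at 11878, 14394 and 14118 in vehicle and 10769, 9838 and 10489 at 72 h (log2 change -0.37, adjusted p = 0.023). KRT8, which pairs with KRT18, was at 5291 ± 789 and 3949 ± 407 and did not pass (adjusted p = 0.092), though it did without vehicle replicate 1. KRT18 lost its call without vehicle array 2 or 3, or without 72 h array 2 or 3 (adjusted p up to 0.11), and KRT7 did not pass when its probe sets were averaged (adjusted p = 0.14).

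Kallikreins are secreted serine proteases coded next to each other on chromosome 19, and several digest the links between outer skin cells. Of 8 tested, 4 rose and 0 fell (median log2 change 0.63). Beside KLK6, KLK7 went from 117, 132 and 139.9 to 306, 289 and 288 (log2 change 1.09, SE 0.17, adjusted p = 7.9e-04) and KLK5 from 905, 1016 and 1104 to 2222, 2160.4 and 1903 (log2 change 1.05, SE 0.11, adjusted p = 1.3e-05). KLK8 had the smallest of the 4 changes, from 883, 1099 and 1248 to 1674, 1818 and 1701 (log2 change 0.69, SE 0.11, adjusted p = 9.3e-04). No treated array overlapped a vehicle array for these genes, and KLK5, KLK6, KLK7 and KLK8 are direct neighbours among the genes tested.

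Serpins block proteases, and here 3 of 8 tested rose and 1 fell (median log2 change 0.38). SERPINB7, an epidermal member, was low in vehicle, with 52.9, 65.4 and 30.8 in vehicle and 1007, 1165 and 1084 at 72 h (log2 change 4.11, SE 0.28, adjusted p = 1.5e-07). Its log2 change was 0.77 at 8 h, 3.04 at 24 h and 4.11 at 72 h. SERPINB1, an inhibitor of neutrophil proteases, gave 369.5, 459 and 421 in vehicle and 1026, 1124 and 1034 at 72 h, and its neighbour on chromosome 6, the granzyme B inhibitor SERPINB9, 139.5, 111 and 169 in vehicle and 239, 266 and 227 at 72 h (log2 change 0.75, adjusted p = 0.032). SERPINA1, which encodes alpha-1 antitrypsin, fell from 336, 399 and 367 to 142, 256 and 172 (log2 change -0.93, adjusted p = 0.0048). SERPINB9 lost its call without vehicle array 1 or 2, or without 72 h array 1, 2 or 3 (adjusted p up to 0.14).

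**Figure D2:**
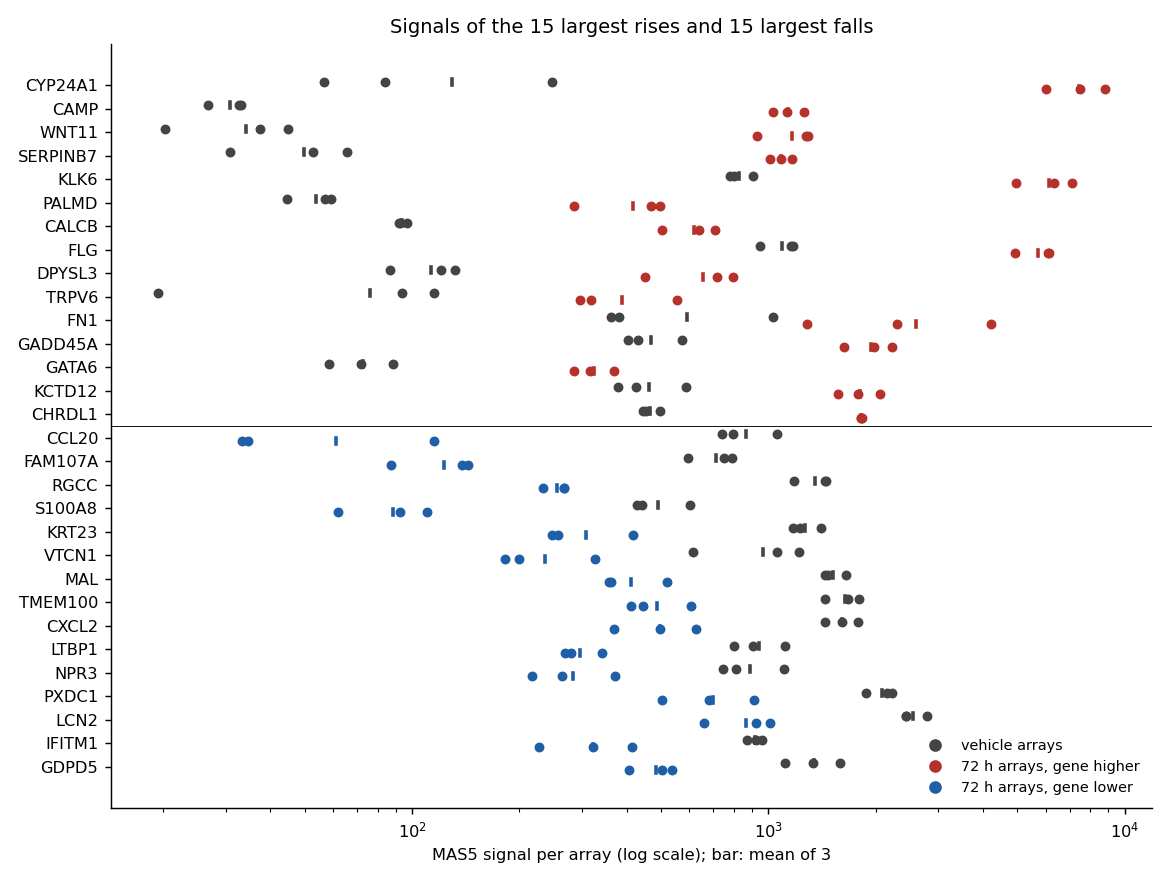
MAS5 signals (horizontal axis, log scale) of the 15 genes with the largest rises (above the line, red) and the 15 with the largest falls (below the line, blue), leaving out overlapping genes such as PSMB8, on each of the 3 vehicle arrays (grey) and 3 arrays of 72 h, with bars at the means. The genes were chosen among called genes whose groups do not overlap, so all 72 h points lie to 1 side of the vehicle points. Among the 72 h arrays of the rises FN1 spreads widest, with 4216, 1280.4 and 2288.

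Among Wnt genes the ligand WNT11 dominated. WNT11, a secreted ligand of the branch of Wnt signalling that steers cell movement, gave 44.8, 20.3 and 37.5 in vehicle and 1275, 928 and 1291 at 72 h (log2 change 4.58, SE 0.23, adjusted p = 4.3e-09). TSKU, a secreted leucine-rich protein known to act on Wnt and BMP signals, gave 1632, 1535 and 1662 in vehicle and 6687, 4828 and 5616 at 72 h (log2 change 1.80, SE 0.12, adjusted p = 1.5e-07). For both genes every treated array was well above the vehicle arrays, and TSKU had log2 changes of 1.41 at 8 h, 1.91 at 24 h and 1.80 at 72 h. The transcription factor TCF7L2 (log2 change 0.46, adjusted p = 0.0042) and the antagonist DKK3 (log2 change 0.55, adjusted p = 0.030, chosen after its values were seen) also rose, and WNT5A fell from 1979, 1868 and 1654 to 1205, 1272 and 1343 (log2 change -0.52, adjusted p = 0.011). In all, 4 of 19 tested Wnt ligands, receptors and antagonists rose and 1 fell (median log2 change 0.032), with 2 that fell when 72 h replicate 2 was left out. DKK3 lost its call without vehicle array 1, 2 or 3, or without 72 h array 1 or 2 (adjusted p up to 0.13). WNT5A lost it without vehicle array 1 (adjusted p = 0.062). TCF7L2 did not pass when its probe sets, which ran from 0.11 to 0.57, were averaged (adjusted p = 0.064).

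In TGF-beta and BMP signalling the calls went both ways, with 7 of 39 tested members higher and 5 lower (median log2 change 0.0044). Those that fell with the lowest p were LTBP1, which stores latent TGF-beta in the matrix, TMEM100, a target of BMP signals, and TGFBR2, the receptor that binds TGF-beta. LTBP1 went from 1113, 801 and 903 to 269, 279 and 341 (log2 change -1.61, SE 0.15, adjusted p = 3.7e-06). TMEM100 went from 1439.9, 1672 and 1801 to 411, 606 and 444 (log2 change -1.73, SE 0.23, adjusted p = 1.9e-04). TGFBR2 went from 1859.9, 1830.4 and 1686 to 921, 1084 and 983 (log2 change -0.84, SE 0.12, adjusted p = 2.8e-04). In each of the 3 genes the treated arrays were all below the vehicle arrays. BMP7, a ligand, fell too (log2 change -0.68, adjusted p = 0.0051), although its 4 probe sets ran from -0.80 to 0.30, as did the ubiquitin ligase SMURF2 (log2 change -0.52, adjusted p = 0.015).

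The rises in this pathway included secreted antagonists. FST encodes follistatin, which binds activins, and went from 1180.3, 1074 and 908 to 3035, 2033 and 2129.6 (log2 change 1.16, SE 0.14, adjusted p = 7.5e-05). INHBB, which codes for the activin B subunit, stood at 1476, 1399 and 1298 in vehicle and 3909, 2251 and 2438 at 72 h (log2 change 0.99, adjusted p = 6.8e-04), with 72 h replicate 1 the highest. GREM1, an antagonist of BMPs, stood at 203, 99.1 and 164 in vehicle and 445, 319.8 and 503 at 72 h (log2 change 1.38, adjusted p = 0.0019). ID3, a BMP-responsive inhibitor of transcription factors, stood at 862, 1367 and 907 in vehicle and 2954, 1857 and 2261 at 72 h (log2 change 1.17, adjusted p = 7.2e-04). Smaller rises were seen for TGFB1 (log2 change 0.75, adjusted p = 0.033), TGIF1 (log2 change 0.41, adjusted p = 0.024) and ID1 (log2 change 0.37, adjusted p = 0.0496). CHRDL1, another BMP antagonist outside the list, was among the 15 largest of the rises and had nearly equal treated signals, 454, 443 and 496 in vehicle and 1828, 1822 and 1816 at 72 h (log2 change 1.94, SE 0.10, adjusted p = 4.3e-09). INHBB, GREM1, ID3, TGFB1, TGIF1, ID1, BMP7 and SMURF2 were chosen after their values were seen. SMURF2 lost its call without vehicle array 1 or 3 (adjusted p up to 0.071). TGFB1 lost it without vehicle array 2 or 3, or without 72 h array 1, 2 or 3 (adjusted p up to 0.13). TGIF1 lost it without vehicle array 2 or 3, or without 72 h array 1 or 3 (adjusted p up to 0.12). ID1 lost it without vehicle array 1 or 3, or without 72 h array 1, 2 or 3 (adjusted p up to 0.22).

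For insulin-like growth factors, binding proteins moved: 2 of 8 tested members of the axis rose and 1 fell (median log2 change 0.20). IGFBP4 stood at 453, 541 and 423 in vehicle and 808, 804 and 1077 at 72 h (log2 change 0.90, SE 0.16, adjusted p = 0.0021) and IGFBP2 at 2450.2, 2072 and 1624 in vehicle and 3869, 3284 and 2714 at 72 h (log2 change 0.68, adjusted p = 0.028). The adaptor IRS2 stood at 3313, 3125 and 2958 in vehicle and 2052, 2372 and 2766 at 72 h (log2 change -0.39, adjusted p = 0.044). The ligand IGF1 was uneven in vehicle, at 272, 110.2 and 37.7 against 387, 267 and 291, and did not pass (adjusted p = 0.070), though it did without vehicle replicate 1 (log2 change 1.99, adjusted p = 0.0031). IGFBP2 lost its call without vehicle array 2 or 3, or without 72 h array 1 or 2 (adjusted p up to 0.14). IRS2 lost it without vehicle array 1, 2 or 3, or without 72 h array 1 or 2 (adjusted p up to 0.17).

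EGFR, the receptor of epidermal growth factor, fell from 1625, 1482 and 1285 to 790.1, 726 and 918 (log2 change -0.84, SE 0.19, adjusted p = 0.012). It was 1 of 11 tested members of its family and ligands that fell, and 0 rose (median log2 change -0.27). The ligand BTC (236 ± 46.3 to 158 ± 3.14, adjusted p = 0.14), the receptor ERBB4 (965 ± 56.8 to 762 ± 196, adjusted p = 0.24) and the feedback inhibitor SPRY1 (509 ± 38.2 to 376 ± 62.3, adjusted p = 0.059) did not pass, though SPRY1 did without 72 h replicate 2 and with its probe sets averaged (adjusted p = 0.020 and 0.048). EGFR lost its call without vehicle array 1 (adjusted p = 0.061) and when its 3 tested probe sets, which ran from -0.84 to -0.21, were averaged (adjusted p = 0.070).

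Chemokines and IL6 fell together by count: 6 of 27 tested chemokine, cytokine and NF-kappaB genes fell and 2 rose (median log2 change -0.21). Chemokines draw white blood cells into a tissue, and in epithelial cells many are switched on by the transcription factor NF-kappaB. CCL20, which attracts cells with the receptor CCR6, gave 793, 740.1 and 1056 in vehicle and 115, 34.6 and 33.2 at 72 h (log2 change -3.66, SE 0.34, adjusted p = 4.4e-06). CXCL2, which attracts neutrophils, gave 1608, 1441 and 1785 in vehicle and 627, 495 and 368 at 72 h (log2 change -1.69, SE 0.17, adjusted p = 1.1e-05). Replicate 1 was the highest of the treated arrays for both genes, and neither gene had overlapping arrays. The neutrophil chemokine CXCL6 gave 382, 349 and 515 in vehicle and 177, 132 and 147 at 72 h (log2 change -1.35, adjusted p = 5.5e-04).

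The other members that fell were chosen after their values were seen. CXCL3 stood at 616, 598 and 683 in vehicle and 349, 258 and 161 at 72 h (log2 change -1.31, adjusted p = 0.0013). CXCL8, also called interleukin-8, stood at 2113, 2183 and 3132 in vehicle and 1247, 1096 and 1525 at 72 h (log2 change -0.92, adjusted p = 0.0013). IL6, a cytokine of inflammation, stood at 421, 407 and 568 in vehicle and 168, 185 and 231 at 72 h (log2 change -1.19, adjusted p = 0.0027). Every treated array was below every vehicle array for all 3 genes. Log2 changes against vehicle at 24 h were -4.04 for CCL20, -1.89 for CXCL2, -1.37 for CXCL6, -1.62 for CXCL3, -1.24 for CXCL8 and -1.35 for IL6. At 72 h they were -3.66, -1.69, -1.35, -1.31, -0.92 and -1.19, and none of the 6 genes differed between 24 and 72 h by the test. CXCL8 and CXCL6, and CXCL3 and CXCL2, are neighbours on chromosome 4.

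CSF1, which sustains macrophages, went the other way, from 229, 309 and 291 to 834, 635 and 659 (log2 change 1.31, SE 0.14, adjusted p = 1.7e-05), and so did the NF-kappaB subunit NFKB2 (log2 change 0.50, adjusted p = 0.017, chosen after its values were seen). NFKB2 lost its call without vehicle array 2, or without 72 h array 1 or 3 (adjusted p up to 0.072) and when its probe sets were averaged (adjusted p = 0.53). The list held 8 positive and 19 negative changes, where the median log2 change over all genes tested was -0.01.

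Because several of these chemokines are textbook targets of NF-kappaB, the DNA before their starts is shown. The sequences are from RefSeq on assembly GRCh38.p14, 5' to 3' along the gene's strand, 40 bases each, with the match to the NF-kappaB site consensus in capitals. Positions are counted back from the start of the gene, and 2 matches on opposite strands overlap by 9 bases where 11 letters are in capitals.
CCL20 (chr2:227813748-227813787, + strand, bases -94 to -55): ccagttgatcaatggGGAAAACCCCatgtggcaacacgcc
CXCL2 (chr4:74099249-74099288, - strand, bases -93 to -54): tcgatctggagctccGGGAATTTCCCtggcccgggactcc
CXCL3 (chr4:74038744-74038783, - strand, bases -94 to -55): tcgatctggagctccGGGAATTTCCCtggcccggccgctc
CXCL6 (chr4:73836573-73836612, + strand, bases -105 to -66): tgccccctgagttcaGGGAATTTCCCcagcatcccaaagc

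The CXCL2 and CXCL3 stretches have the same letters up to and past the match, and CXCL6 has the same 11 capital letters. IL6 held a match at bases -73 to -64, and CXCL8 held none in its window of 250 bases before to 50 after the start. Searched on both strands, 13.5% of the 6003 promoters found for genes tested held a match (10.8% of all 27305 RefSeq promoters of that length). So did 31 of the 168 promoters of genes that fell (18.5%) and 32 of the 229 of genes that rose, a share close to that of the genes tested. A match is a stretch of letters and shows no binding. The lack of a match, as in CXCL8, holds for this consensus only and does not show that a promoter has no NF-kappaB site.

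Interferon-linked genes were lower by count. Of 32 tested genes, 0 rose and 9 fell, and 28 of the 32 changes were negative (median log2 change -0.29). Among all genes tested 2.98% fell, and the median log2 change was -0.01. Interferons are the alarm signals of virus-infected cells, and the IFITM proteins that they induce keep viruses from entering. IFITM1 gave 871, 925 and 957 in vehicle and 227, 415 and 322 at 72 h (log2 change -1.51, SE 0.22, adjusted p = 4.0e-04). IFITM2 gave 2352, 2523 and 2898 in vehicle and 1311, 1516 and 1875 at 72 h (log2 change -0.73, SE 0.12, adjusted p = 0.0014), and IFITM3, chosen after its values were seen, 3994, 4609 and 4153 in vehicle and 3027, 3074 and 3248 at 72 h (log2 change -0.44, SE 0.08, adjusted p = 0.0022). The treated arrays were lower than the vehicle arrays in all 3 genes. IFITM2, IFITM1 and IFITM3 lie side by side on chromosome 11 and are close in sequence, so their values are uncertain where a probe set reads more than 1 of them.

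The interferon regulatory factor IRF8 fell from 380.0, 295 and 431 to 135, 168 and 128 (log2 change -1.26, SE 0.20, adjusted p = 6.4e-04). IFNGR1, which binds interferon gamma, fell from 1385, 1356 and 1865 to 794, 793 and 959 (log2 change -0.83, SE 0.15, adjusted p = 0.0020). IRF8 had a log2 change of -1.07 already at 8 h and -0.94 at 24 h, while IFITM1 had -0.013 and -0.78. The antiviral gene TRIM22 (log2 change -0.76, adjusted p = 0.0080), the RNA-binding IFIT5 (log2 change -0.64, adjusted p = 0.022), the GTPase GBP2 (log2 change -0.76, adjusted p = 0.024) and the immunoproteasome subunit PSMB8 (log2 change -1.72, adjusted p = 0.043) complete the 9, and were chosen after their values were seen. PSMB8 was split at 72 h, with 456, 64.4 and 58.0 against 567, 354 and 452 in vehicle, so that replicate 1 overlapped. Without that array its log2 change was -2.60. IFIT5 lost its call without vehicle array 1, 2 or 3, or without 72 h array 1 or 2 (adjusted p up to 0.083) and when its probe sets were averaged (adjusted p = 0.73). GBP2 lost it without vehicle array 1 or 2, or without 72 h array 1 or 3 (adjusted p up to 0.12). PSMB8 lost it without vehicle array 1, 2 or 3, or without 72 h array 2 or 3 (adjusted p up to 0.16), and the number that fell was 6 without vehicle replicate 1 or 2.

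For IFITM1 and IFITM3 the DNA at the start is shown, since genes induced by interferon often carry a GAAANNGAAA element there (N is any base). The capitals mark each match, on the strand of the gene.
IFITM1 (chr11:313980-314043, + strand, bases -60 to 4): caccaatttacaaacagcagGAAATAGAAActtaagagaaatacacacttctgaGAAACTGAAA
IFITM3 (chr11:320861-320920, - strand, bases -60 to -1): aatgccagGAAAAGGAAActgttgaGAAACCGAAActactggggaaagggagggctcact

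Both genes held 2 matches within 60 bases of the start. On either strand, 2.82% of the 6003 promoters of genes tested and 3.65% of all 27305 RefSeq promoters held at least 1. The shares were 4.76% of the 168 for genes that fell and 2.18% of the 229 for genes that rose, counts of 8 and 5 genes.

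Antigen presentation had few tested genes, and its calls were all falls. Of 15 tested genes 2 fell and 0 rose (median log2 change -0.10). Over all genes tested 2.98% fell, and the median log2 change was -0.01. VTCN1, also called B7-H4, a brake on T cells that ovarian carcinomas often carry, fell from 1059, 1219 and 615 to 199, 326 and 182 (log2 change -1.95, SE 0.27, adjusted p = 2.7e-04). Vehicle replicate 3 was the lowest vehicle array and still above all treated arrays. B2M, the light chain of class I molecules, stood at 10589.5, 11817 and 10931 in vehicle and 8677, 9658 and 8893 at 72 h (log2 change -0.29, adjusted p = 0.022). B2M lost its call without vehicle array 2 or 3, or without 72 h array 1 or 3 (adjusted p up to 0.089). HLA-E (871 ± 10.0 to 1108 ± 203, adjusted p = 0.17) and TAPBP (886 ± 92.8 to 711 ± 59.5, adjusted p = 0.11) did not pass.

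**Figure D3:**
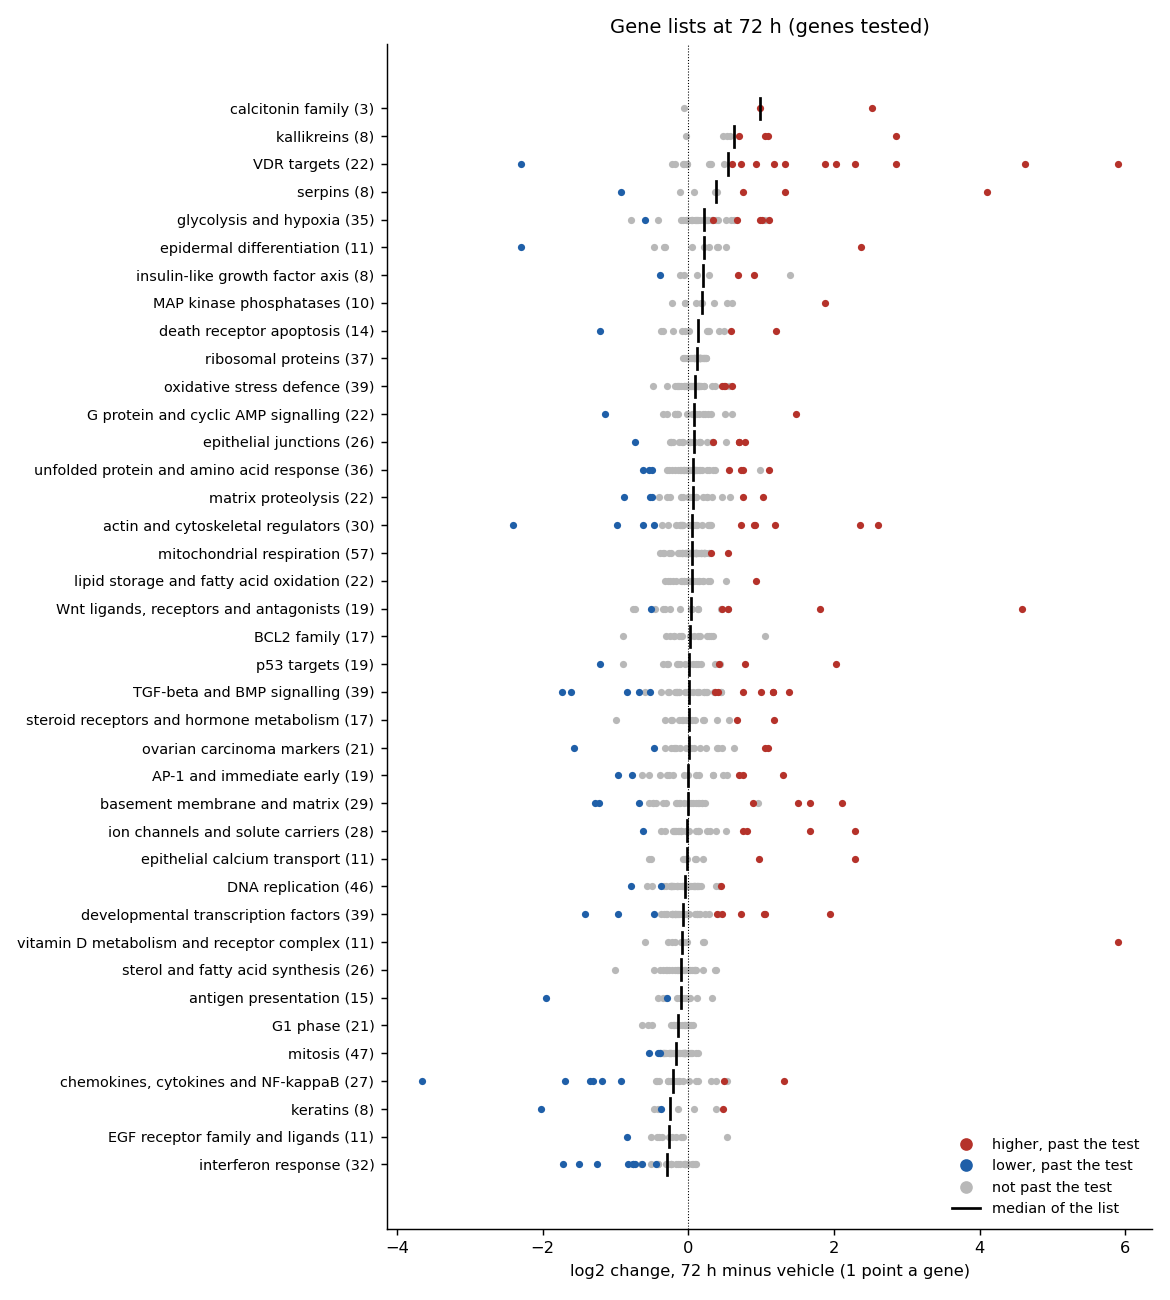
Log2 change at 72 h against vehicle (horizontal axis) of each tested gene of 39 gene lists (vertical axis, number tested in brackets), red where the gene rose, blue where it fell, grey where it did not pass, with a black bar at each list's median. The lists run from the calcitonin family, with a median of 0.98, down to interferon response, with -0.29.

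Basement membrane genes held a tight pair. COL4A1 and COL4A2 encode the 2 chains of the common form of type IV collagen, the sheet that epithelia rest on. COL4A1 gave 1903, 1407 and 1753 in vehicle and 5789, 5514 and 4804 at 72 h (log2 change 1.67, SE 0.13, adjusted p = 6.2e-07) and COL4A2 2013, 1861 and 1696 in vehicle and 5982, 4866 and 5105 at 72 h (log2 change 1.51, SE 0.10, adjusted p = 1.4e-07). The treated arrays of both genes were far above the vehicle arrays, with little spread. Log2 changes at 8, 24 and 72 h were 0.92, 1.70 and 1.67 for COL4A1, and 0.57, 1.21 and 1.51 for COL4A2. The genes stand head to head on chromosome 13, and the 126 bases between their starts are shown as read along COL4A2, with the CCAAT box in capitals.
COL4A2 upstream (chr13:110307158-110307283, + strand): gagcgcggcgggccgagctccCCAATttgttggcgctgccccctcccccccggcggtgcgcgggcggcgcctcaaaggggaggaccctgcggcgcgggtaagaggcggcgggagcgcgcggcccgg

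A CCAAT box, which 35.7% of 27305 RefSeq promoters held on either strand, thus lies 105 to 101 bases before the start of COL4A2 and 26 to 22 bases before that of COL4A1. In all, 4 of 29 tested matrix genes rose and 3 fell (median log2 change -0.0034). FN1, fibronectin, rose with a wide spread: 1033, 382 and 361 in vehicle and 4216, 1280.4 and 2288 at 72 h (log2 change 2.11, SE 0.49, adjusted p = 0.015). Replicate 1 was the highest array in both groups, and the 5 tested probe sets of FN1 ran from 0.52 to 2.97. The laminin chain LAMB3 rose (log2 change 0.89, adjusted p = 0.0023), while tenascin, TNC, fell from 479.8, 583 and 648 to 219, 220.1 and 264 (log2 change -1.22, SE 0.19, adjusted p = 7.4e-04) and the microfibril protein FBN2 from 3063, 2409 and 2761 to 1058, 1095 and 1205 (log2 change -1.28, SE 0.11, adjusted p = 1.8e-06). COL9A2 fell as well (log2 change -0.68, adjusted p = 0.019), and with LAMB3 was chosen after its values were seen. FN1 lost its call without vehicle array 2 or 3, or without 72 h array 1 (adjusted p up to 0.088). COL9A2 lost it without vehicle array 1, or without 72 h array 3 (adjusted p up to 0.10), and TNC did not pass when its probe sets were averaged (log2 change -0.63, adjusted p = 0.10).

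Of 22 tested genes of matrix proteolysis, 2 rose and 3 fell (median log2 change 0.063). The lysosomal protease CTSD went from 567, 408 and 483 to 1226, 899.6 and 897 (log2 change 1.02, SE 0.14, adjusted p = 2.4e-04), and PLAUR, the receptor of urokinase, from 481, 434 and 457 to 805, 729 and 815 (log2 change 0.75, SE 0.11, adjusted p = 3.8e-04). Cathepsin B, CTSB, fell from 13712, 13139 and 14299.9 to 9992, 9946 and 9275 (log2 change -0.49, SE 0.074, adjusted p = 4.7e-04), a small change with close replicates. ADAMTS1, which cuts matrix proteoglycans, fell too (log2 change -0.88, adjusted p = 0.0063), as did the membrane sheddase ADAM10 (log2 change -0.52, adjusted p = 0.011, chosen after its values were seen). CTSC, a protease that activates granule proteases, is outside the list and rose (log2 change 0.95, adjusted p = 0.0037, chosen after its values were seen).

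Of 26 tested junction genes 4 rose and 1 fell (median log2 change 0.075). CDH1, E-cadherin, which holds epithelial cells together, gave 2351, 2610.1 and 1968 in vehicle and 3516, 4098 and 3563 at 72 h (log2 change 0.69, SE 0.11, adjusted p = 5.4e-04). PKP2, a desmosome protein, gave 363, 422 and 373 in vehicle and 638, 692 and 689.8 at 72 h (log2 change 0.78, SE 0.13, adjusted p = 0.0012), and CLDN10, which forms ion pores between cells, 889, 734 and 744 in vehicle and 1512, 1111 and 1237 at 72 h (log2 change 0.69, SE 0.12, adjusted p = 0.0016). All 3 treated arrays were higher in each gene. DSP, the anchor of desmosomes, had a small rise (log2 change 0.34, adjusted p = 0.046, chosen after its values were seen), which it lost without any 1 of the 6 arrays (adjusted p up to 0.15). GJA1, which forms gap junctions, fell from 1119, 1048 and 956 to 607, 528 and 744 (log2 change -0.73, SE 0.13, adjusted p = 0.0021).

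Of 30 tested regulators of the cytoskeleton 6 rose and 4 fell (median log2 change 0.051). PALMD, a membrane-bound protein of the paralemmin family, went from 59.2, 57.0 and 44.6 to 285, 468 and 495 (log2 change 2.61, SE 0.20, adjusted p = 6.0e-07). DPYSL3, which bundles actin and guides growing nerve fibres, went from 121, 132 and 86.5 to 798, 449 and 719 (log2 change 2.36, SE 0.22, adjusted p = 3.3e-06). Both genes were low in vehicle and higher on each treated array. FAM107A, an actin-associated gene often lost in tumours, fell from 792, 593 and 749 to 144, 138 and 87.3 (log2 change -2.40, SE 0.19, adjusted p = 6.0e-07), and its other probe set gave -6.07. NAV2 fell (log2 change -0.98, adjusted p = 1.3e-04). Chosen after their values were seen, MAP1B (log2 change 1.19, adjusted p = 0.0033), the LIM protein FHL2 (log2 change 0.92, adjusted p = 0.0044), the myosin kinase MYLK (log2 change 0.91, adjusted p = 0.0017) and the actin-severing GSN (log2 change 0.72, adjusted p = 0.0010) rose, and the LIM proteins LMCD1 (log2 change -0.62, adjusted p = 0.0049) and PDLIM1 (log2 change -0.47, adjusted p = 0.038) fell. PDLIM1 lost its call without vehicle array 1, 2 or 3, or without 72 h array 1 or 3 (adjusted p up to 0.14), and GSN did not pass when its probe sets were averaged (adjusted p = 0.080). The tubulin genes TUBA4A and TUBA4B, neighbours on chromosome 2 and outside the list, rose by 0.66 and 1.11 log2 units (adjusted p = 6.5e-04 and 3.7e-04, chosen after their values were seen).

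Markers of ovarian carcinoma gave 2 rises and 2 falls among 21 tested (median log2 change 0.0032). WT1, the transcription factor that marks serous ovarian carcinoma, went from 2064, 2264 and 1958 to 4268, 4579 and 4212 (log2 change 1.05, SE 0.082, adjusted p = 6.1e-07), and had log2 changes of 0.97 at 8 h and 1.00 at 24 h. CP, the copper carrier ceruloplasmin, went from 2096, 3287 and 2164 to 3732, 6943 and 5636 (log2 change 1.09, adjusted p = 0.0030). LCN2, an iron-binding protein of inflamed epithelia, fell from 2790.4, 2430.5 and 2436 to 924, 1007 and 660.4 (log2 change -1.56, SE 0.17, adjusted p = 2.0e-05), and EMX2 from 1925, 1879 and 1883 to 1453, 1478 and 1170.1 (log2 change -0.47, adjusted p = 0.0083). Groups did not overlap in any of the 4.

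Among developmental transcription factors 6 of 39 tested rose and 3 fell (median log2 change -0.076), WT1, CEBPB and EMX2 from above among them. GATA6, a factor of ovarian surface and gut epithelium, went from 58.5, 71.7 and 88.2 to 368, 285 and 316 (log2 change 1.94, SE 0.19, adjusted p = 6.2e-06). ETS2 went from 287, 280.3 and 289 to 636, 512 and 663 (log2 change 1.03, SE 0.15, adjusted p = 2.8e-04). The log2 change of GATA6 was 1.60 at 8 h, 1.79 at 24 h and 1.94 at 72 h. The epithelial factors ELF3 and EHF, which belong to the same ETS subfamily, were called in opposite directions: ELF3 stood at 913, 1050.1 and 1002 in vehicle and 1330.2, 1299.6 and 1482 at 72 h (log2 change 0.46, adjusted p = 0.0058) and EHF at 487, 483 and 411 in vehicle and 148, 183 and 156 at 72 h (log2 change -1.42, adjusted p = 0.0017). KLF10 rose (log2 change 0.39, adjusted p = 0.023), which it lost without vehicle array 2 or 3, or without 72 h array 2 or 3 (adjusted p up to 0.10). KLF4, a factor of epithelial barrier genes, fell from 506, 479 and 625 to 248, 241 and 309 (log2 change -0.97, SE 0.16, adjusted p = 9.1e-04). ELF3, EHF and KLF10 were chosen after their values were seen. So were factors outside the list: NKX2-1 (log2 change -1.23, adjusted p = 8.2e-04) and MEOX1 (log2 change -1.23, adjusted p = 7.5e-05) fell, and DLX2 (log2 change 0.91, adjusted p = 8.8e-04) and OSR2 (log2 change 0.99, adjusted p = 0.0012) rose.

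Immediate early genes, which answer growth signals within minutes, gave 3 rises and 2 falls among 19 tested (median log2 change 0.00061). The AP-1 subunit FOSL2 stood at 381, 250.2 and 199 in vehicle and 857, 546 and 676 at 72 h (log2 change 1.30, SE 0.21, adjusted p = 0.0010) and JUNB at 517, 555 and 487 in vehicle and 759, 852 and 939.7 at 72 h (log2 change 0.69, SE 0.13, adjusted p = 0.0038). ATF3 rose (log2 change 0.76, adjusted p = 0.034, chosen after its values were seen) and EGR1 fell (log2 change -0.78, adjusted p = 0.027), together with KLF4. ATF3 lost its call without vehicle array 2 or 3, or without 72 h array 3 (adjusted p up to 0.15). EGR1 lost it without vehicle array 1 or 3, or without 72 h array 1 or 3 (adjusted p up to 0.12) and when its probe sets were averaged (adjusted p = 0.29). DUSP10 was the only 1 of 10 tested MAP kinase phosphatases that passed (median log2 change 0.19). DUSP5 (391 ± 80.1 to 602 ± 147, adjusted p = 0.14), DUSP1 (379.7 ± 37.0 to 579 ± 214, adjusted p = 0.20) and DUSP14 (741 ± 93.0 to 951 ± 154, adjusted p = 0.16) did not.

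Of 17 tested genes of steroid receptors and hormone metabolism 2 rose and 0 fell (median log2 change 0.0036). NRIP1, which represses nuclear receptors such as the oestrogen receptor, stood at 689, 843 and 788 in vehicle and 1946, 1419.9 and 1982 at 72 h (log2 change 1.18, SE 0.18, adjusted p = 5.2e-04). CYP1B1, which hydroxylates oestrogens, stood at 308, 362 and 333 in vehicle and 516, 493 and 621 at 72 h (log2 change 0.67, adjusted p = 0.012). The related CYP1A1 was at 235 ± 48.6 and 350.4 ± 20.2 (adjusted p = 0.079) and passed without vehicle replicate 3, and the retinoic acid receptor RARG at 387, 317 and 343 against 260.2, 282 and 59.2, where 1 treated array was far below the others (adjusted p = 0.15). CYP1B1 lost the call without vehicle array 1, or without 72 h array 3 (adjusted p up to 0.061) and when its probe sets were averaged (adjusted p = 0.11).

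Cell cycle lists moved little in single genes. Of 21 tested G1 genes 0 passed (median log2 change -0.14, against -0.01 over all genes tested), with 18 of 21 changes negative. The cyclin CCND1 was at 816 ± 196 in vehicle and 576 ± 250.1 at 72 h (adjusted p = 0.25) and MYC at 326 ± 120.1 and 199 ± 46.8 (adjusted p = 0.14). CCND1 passed without 72 h replicate 3 and MYC without vehicle replicate 2. SKP2 (log2 change -0.24, adjusted p = 0.13) and TFDP1 (log2 change -0.21, adjusted p = 0.25) did not pass. Of 46 DNA replication genes 1 rose and 2 fell (median log2 change -0.051). The ribonucleotide reductase subunit RRM2 rose (log2 change 0.45, adjusted p = 0.036). The clamp loader RFC3 (log2 change -0.37, adjusted p = 0.042) and the histone chaperone CHAF1B (log2 change -0.79, adjusted p = 0.017) fell. The polymerase subunit POLE2 stood at 816 ± 67.9 and 575 ± 67.5 (adjusted p = 0.070, or 0.043 with only the 6 arrays in the fit). RRM2 lost its call without vehicle array 1, 2 or 3, or without 72 h array 1 or 3 (adjusted p up to 0.13). RFC3 lost it without vehicle array 1, 2 or 3, or without 72 h array 1 or 3 (adjusted p up to 0.15). CHAF1B lost it without vehicle array 1 or 3, or without 72 h array 3 (adjusted p up to 0.077).

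In the mitosis list 3 of 47 tested genes fell, 0 rose and 41 of the 47 changes were negative (median log2 change -0.17). Over all genes tested 2.98% fell and the median log2 change was -0.01. CDC25B, a phosphatase that opens the way into mitosis, stood at 1959, 1989.9 and 2030.0 in vehicle and 1613, 1400.2 and 1133 at 72 h (log2 change -0.54, adjusted p = 0.010). RACGAP1 (log2 change -0.39, adjusted p = 0.012) and DLGAP5 (log2 change -0.42, adjusted p = 0.014), both of the spindle and cell division, had smaller falls, and ESPL1 missed the threshold (log2 change -0.37, adjusted p = 0.054, or 0.044 with a stricter filter). The number that fell was 5 without 72 h replicate 3 and 1 without vehicle replicate 2. RACGAP1 lost its call without vehicle array 2 (adjusted p = 0.054). DLGAP5 lost it without vehicle array 2 or 3 (adjusted p up to 0.057). CCNA1, a germ cell cyclin outside these lists, rose from 504, 532 and 699.9 to 1741, 1214 and 1649.7 (log2 change 1.38, SE 0.17, adjusted p = 8.6e-05).

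Of 19 tested p53 targets 3 rose and 1 fell (median log2 change 0.014). Beside GADD45A they were its relative GADD45B, at 227, 180.2 and 243 in vehicle and 394, 372 and 379.5 at 72 h (log2 change 0.78, adjusted p = 0.011), and the kinase PLK2, at 3738, 3879 and 3884 in vehicle and 4894, 5316 and 5170.3 at 72 h (log2 change 0.42, adjusted p = 0.0055). FAS, the death receptor, fell from 411, 353 and 424 to 157, 201 and 132 (log2 change -1.22, SE 0.20, adjusted p = 0.0010). PMAIP1 stood at 428 ± 60.5 and 227 ± 56.6 (adjusted p = 0.076, or 0.020 with only the 6 arrays in the fit). GADD45B lost its call without vehicle array 2 (adjusted p = 0.057). Among 14 tested genes of death receptor apoptosis 2 rose and FAS fell (median log2 change 0.13). TNFSF10, the death ligand TRAIL, went from 141, 122 and 53.9 to 213, 244 and 296 (log2 change 1.21, adjusted p = 0.0060), and the adaptor TRADD rose (log2 change 0.58, adjusted p = 0.018), a call it lost without vehicle array 1 or 2, or without 72 h array 1 (adjusted p up to 0.084) and when its probe sets were averaged (adjusted p = 0.32). Of 17 tested BCL2 family and related genes 0 passed (median log2 change 0.021), among them BNIP3 (1590.1, 3238 and 1891 against 4029.9, 5899.9 and 3686, adjusted p = 0.065), CASP9 (adjusted p = 0.073) and BID (adjusted p = 0.12). BNIP3 passed without vehicle replicate 2 (adjusted p = 0.026) and with only the 6 arrays in the fit (0.019), and CASP9 without 72 h replicate 1.

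Glycolysis and hypoxia genes gave 5 rises and 1 fall among 35 tested (median log2 change 0.21). DDIT4, a stress gene that restrains mTOR, went from 1009, 865 and 964 to 2461, 2088 and 1669.5 (log2 change 1.10, SE 0.12, adjusted p = 3.1e-05). PFKP, a gatekeeper enzyme of glycolysis, went from 1439.9, 1711 and 1539 to 3263, 3376 and 2876 (log2 change 1.01, SE 0.11, adjusted p = 2.0e-05), and VEGFA, the vessel growth factor, from 818, 795 and 747 to 1364, 1399 and 1046 (log2 change 0.67, adjusted p = 0.0022). ADM also rose, and TPI1 (log2 change 0.34, adjusted p = 0.023) and PFKFB3 (log2 change -0.59, adjusted p = 0.039, which fell) were chosen after their values were seen. TPI1 lost its call without vehicle array 1 or 3, or without 72 h array 1 or 2 (adjusted p up to 0.10). PFKFB3 lost it without vehicle array 1 or 3, or without 72 h array 1, 2 or 3 (adjusted p up to 0.16). The number of rises was 11 without vehicle replicate 2 and was 7 without 72 h replicate 3, and 4 without any other array.

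Respiration and lipid genes changed little. In mitochondrial respiration 2 of 57 tested genes rose and 0 fell (median log2 change 0.047): the succinate dehydrogenase subunit SDHA (log2 change 0.54, adjusted p = 0.031) and NDUFB5 (log2 change 0.31, adjusted p = 0.029), while NDUFS7 (log2 change -0.33, adjusted p = 0.076) and COX6A1 (log2 change 0.28, adjusted p = 0.072) did not pass. SDHA lost its call without vehicle array 1 or 3, or without 72 h array 1, 2 or 3 (adjusted p up to 0.13). NDUFB5 lost it without vehicle array 1 or 3, or without 72 h array 1 or 2 (adjusted p up to 0.13). No member rose when vehicle array 1 or 3, or 72 h array 1 or 2, was left out, and 3 other members fell without 72 h array 2. Of 26 tested genes of sterol and fatty acid synthesis 0 passed (median log2 change -0.10), HMGCS1 coming nearest among those that were lower (log2 change -0.48, adjusted p = 0.097, or 0.027 with only the 6 arrays in the fit). INSIG1 (log2 change 0.38, adjusted p = 0.092), NSDHL (log2 change 0.37, adjusted p = 0.13) and SC5D (log2 change -0.34, adjusted p = 0.11) did not pass either. NSDHL passed without 72 h replicate 2. Of 22 tested genes of lipid storage and fatty acid oxidation, G0S2, which stood at 198, 198 and 186 in vehicle and 453, 389 and 319 at 72 h, was the 1 that rose (median log2 change 0.046). PLIN2 (log2 change -0.32, adjusted p = 0.10), HILPDA (log2 change 0.30, adjusted p = 0.12) and FABP5 (log2 change 0.51, adjusted p = 0.12) did not pass. IDH2, a mitochondrial enzyme outside these lists, rose from 468, 512 and 429 to 1477, 1127 and 1026 (log2 change 1.32, adjusted p = 2.8e-05, chosen after its values were seen).

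Stress lists were mixed. Of 36 tested genes of the unfolded protein and amino acid response 4 rose and 3 fell (median log2 change 0.069). DDIT4, CEBPB and ATF3 are among the rises, with the serine synthesis enzyme PSPH (log2 change 0.56, adjusted p = 0.039). The other serine enzyme PSAT1 (log2 change -0.54, adjusted p = 0.018), the stress kinase EIF2AK3 (log2 change -0.49, adjusted p = 0.022) and the amino acid carrier SLC7A5 (log2 change -0.62, adjusted p = 0.041) fell. PSPH and SLC7A5 were chosen after their values were seen. PSPH lost its call without any 1 of the 6 arrays (adjusted p up to 0.14). PSAT1 lost it without vehicle array 1 or 3, or without 72 h array 2 or 3 (adjusted p up to 0.097). EIF2AK3 lost it without vehicle array 2 or 3, or without 72 h array 1 (adjusted p up to 0.093). SLC7A5 lost it without vehicle array 1, 2 or 3, or without 72 h array 1 or 2 (adjusted p up to 0.15).

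In oxidative stress defence 4 of 39 tested genes rose and 0 fell (median log2 change 0.084). TXNRD1, which recycles thioredoxin, stood at 3746, 3558 and 3588 in vehicle and 4979, 5573 and 6034 at 72 h (log2 change 0.60, SE 0.08, adjusted p = 1.7e-04). The glutathione enzymes MGST3 (log2 change 0.49, adjusted p = 0.0033), GSTM3 (log2 change 0.50, adjusted p = 0.0071) and GCLC (log2 change 0.46, adjusted p = 0.036) had smaller changes, and GCLC lost its call without vehicle array 2 or 3, or without 72 h array 1, 2 or 3 (adjusted p up to 0.15). Of 37 tested ribosomal protein genes 0 passed. Their median was 0.12 and turned to -0.01 with quantile normalization; RPL3 (log2 change 0.23, adjusted p = 0.060, or 0.048 with a stricter filter), RPS19 (log2 change 0.22, adjusted p = 0.11), RPL19 (log2 change 0.22, adjusted p = 0.11) and RPL32 (log2 change 0.24, adjusted p = 0.14) had the lowest p of the list.

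Carriers and signalling genes gave single large changes. Of 28 tested ion channels and solute carriers 4 rose and 1 fell (median log2 change -0.019), counting TRPV6 and SLC7A5 from above. SLC39A8, a zinc carrier, went from 999, 949 and 949 to 1816, 1512 and 1804 (log2 change 0.81, SE 0.11, adjusted p = 2.2e-04). SLC1A3, a glutamate carrier, went from 501, 722 and 596 to 932, 1103 and 1036 (log2 change 0.75, adjusted p = 0.0059), and the anion exchanger SLC4A2 from 95.2, 237 and 78.0 to 589, 416 and 311 (log2 change 1.67, adjusted p = 0.018). The 3 probe sets of SLC39A8 above the filter ran from 0.23 to 0.81. The mean of all 4, the dim 1 included, did not pass (log2 change 0.17, adjusted p = 0.50). SLC4A2 lost its call without vehicle array 1 or 3, or without 72 h array 1 (adjusted p up to 0.094). In G protein and cyclic AMP signalling 1 of 22 tested rose and 1 fell (median log2 change 0.077). RAPGEF3, also called EPAC, a sensor of cyclic AMP, stood at 259.8, 236 and 97.2 in vehicle and 691, 414 and 539 at 72 h (log2 change 1.47, adjusted p = 0.0023), and the prostaglandin receptor PTGER2 at 373, 256 and 265 in vehicle and 134, 163 and 87.8 at 72 h (log2 change -1.14, adjusted p = 0.0049). RGS10 did not pass (adjusted p = 0.13). LPAR1, a receptor of lysophosphatidic acid, did not pass with its brightest probe set (log2 change 0.51, adjusted p = 0.12) but did with its probe sets averaged (log2 change 1.46, adjusted p = 8.4e-05).

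The remaining genes of the 15 largest non-overlapping changes in each direction belong to no list. RGCC, named as a cell cycle regulator, went down from 1438, 1179 and 1446 to 266, 233 and 267 (log2 change -2.33, SE 0.20, adjusted p = 1.5e-06), with log2 changes of -2.20 at 8 h and -2.92 at 24 h. KCTD12 rose from 379, 424 and 587 to 1569, 1783 and 2052 (log2 change 1.94, SE 0.16, adjusted p = 7.4e-07). MAL, a protein of apical membrane sorting, fell from 1653, 1465 and 1438 to 356, 518 and 362 (log2 change -1.86, SE 0.15, adjusted p = 9.2e-07). The arrays of each gene were apart by group. NPR3, the clearance receptor of natriuretic peptides, fell from 748, 812 and 1106 to 216, 264 and 371 (log2 change -1.61, adjusted p = 1.7e-04), with a log2 change of -0.97 when its probe sets were averaged. PXDC1 fell from 2227, 1883 and 2152 to 911, 501 and 683 (log2 change -1.59, adjusted p = 1.8e-05) and GDPD5 from 1331, 1583 and 1112 to 502, 537 and 407 (log2 change -1.44, adjusted p = 2.1e-05).

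Other genes outside the lists are named after their values were seen, for their size or their known role. The retinoid-responsive genes RARRES1 (180.1, 163 and 242 in vehicle and 659, 824 and 632 at 72 h; log2 change 1.78, adjusted p = 2.6e-06) and RARRES2, the attractant chemerin (71.1, 254 and 67.3 in vehicle and 561, 338 and 438 at 72 h; log2 change 1.86, adjusted p = 0.0023), rose. SECTM1, a ligand of T and natural killer cells, stood at 65.2, 160.0 and 189 in vehicle and 453, 473 and 558 at 72 h (log2 change 1.83, adjusted p = 7.7e-04). The superoxide source NOX4 stood at 287, 263 and 148 in vehicle and 861, 648 and 796 at 72 h (log2 change 1.70, adjusted p = 7.2e-04) and the adhesion molecule NCAM1 at 262, 278 and 451 in vehicle and 1209, 877 and 1203 at 72 h (log2 change 1.71, adjusted p = 8.0e-05). All of these were higher on every treated array. Tissue factor, F3, rose with uneven vehicle arrays (30.8, 192 and 144 in vehicle and 348, 234 and 350.7 at 72 h; log2 change 1.48, adjusted p = 0.036), and EPHA1 rose (log2 change 0.68, adjusted p = 0.030). The thyrotropin receptor TSHR fell (704, 891 and 726 in vehicle and 250.05, 407 and 231 at 72 h; log2 change -1.38, adjusted p = 4.0e-04). Galectin-1, LGALS1, fell (3194, 2869 and 2194 in vehicle and 2007, 1310.5 and 839 at 72 h; log2 change -1.05, adjusted p = 0.020). F3 lost its call without vehicle array 1, or without 72 h array 1 or 3 (adjusted p up to 0.12) and had a log2 change of 0.82 without vehicle replicate 1. EPHA1 lost its call without vehicle array 1 or 2, or without 72 h array 1 or 3 (adjusted p up to 0.14). LGALS1 lost it without vehicle array 1 or 2, or without 72 h array 3 (adjusted p up to 0.093).

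The change between 24 and 72 h was tested directly. Of 7178 genes 6 were higher and 5 lower at 72 h than at 24 h, 0.0836% and 0.0697% of all genes tested (0.153% in either direction). With the replicate number as a block the counts were 14 and 11, and all 11 genes below passed in that fit too. Of the 11, CCNA1, FLG and FBN2 passed whichever of the 6 arrays was left out, and the other 8 did not. FBN2 did not pass with its probe sets averaged (log2 difference -0.89, adjusted p = 0.11). The counts of higher and lower genes were 4 and 1, 3 and 1, and 3 and 3 without 24 h replicate 1, 2 or 3, and 4 and 4, 5 and 8, and 2 and 2 without 72 h replicate 1, 2 or 3.

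CCNA1 gave 448, 445 and 635 at 24 h against 1741, 1214 and 1649.7 at 72 h (log2 difference 1.56, SE 0.17, adjusted p = 9.9e-04). FLG gave 2151, 2627 and 3391 against 6075, 4911 and 6121 (log2 difference 1.08, SE 0.14, adjusted p = 0.0058). Both were higher on every 72 h array, and CCNA1 had not passed at 24 h against vehicle (log2 change -0.18) while FLG had (1.29). WNT11 gave 348, 529 and 412 against 1275, 928 and 1291 (log2 difference 1.41, SE 0.23, adjusted p = 0.022). TUBA1A, a tubulin, stood at 2050.3 ± 421 and 3837 ± 650.0 (log2 difference 0.91, SE 0.14, adjusted p = 0.019). SLC39A8 stood at 1047 ± 99.9 and 1711 ± 172 (log2 difference 0.70, SE 0.11, adjusted p = 0.019). With its probe sets averaged the difference of SLC39A8 was -0.023 (adjusted p = 0.97), and its other probe sets above the filter gave 0.15 and 0.27. The glutathione transferase GSTM3 stood at 1095 ± 83.5 and 1636 ± 151 (log2 difference 0.57, SE 0.10, adjusted p = 0.044).

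Of those that were lower, FBN2 gave 1999, 1745 and 2154 at 24 h and 1058, 1095 and 1205 at 72 h (log2 difference -0.80, SE 0.11, adjusted p = 0.0065). GPNMB, a membrane glycoprotein, gave 529, 886 and 522 and 235, 309 and 261 (log2 difference -1.18, SE 0.21, adjusted p = 0.044), and its vehicle arrays lay with those of 24 h, at 512, 888 and 706. LCN2 stood at 1658 ± 370.3 and 864 ± 181 (log2 difference -0.92, SE 0.17, adjusted p = 0.044). The transcription factor SIM1 stood at 945 ± 86.9 and 608 ± 81.7 (log2 difference -0.63, SE 0.12, adjusted p = 0.049) and the ubiquitin protease USP48 at 1965 ± 427 and 1144 ± 72.6 (log2 difference -0.75, SE 0.14, adjusted p = 0.044). USP48 stood at 1266 ± 114 in vehicle and did not pass against vehicle at 72 h (adjusted p = 0.64). WNT11 lost this call without 24 h array 1 or 3, or without 72 h array 1 or 3 (adjusted p up to 0.16). TUBA1A lost it without 24 h array 1 or 2, or without 72 h array 1 or 3 (adjusted p up to 0.10). SLC39A8 lost it without 24 h array 2 or 3, or without 72 h array 1 or 3 (adjusted p up to 0.079). GSTM3 lost it without 24 h array 1, 2 or 3, or without 72 h array 2 or 3 (adjusted p up to 0.21). GPNMB lost it without 24 h array 1, 2 or 3, or without 72 h array 1 or 3 (adjusted p up to 0.16). LCN2 lost it without 24 h array 1 or 2, or without 72 h array 1 or 3 (adjusted p up to 0.22). SIM1 lost it without 24 h array 1, 2 or 3, or without 72 h array 1 or 3 (adjusted p up to 0.22). USP48 lost it without 24 h array 1 or 2, or without 72 h array 1, 2 or 3 (adjusted p up to 0.16).

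**Figure D4:**
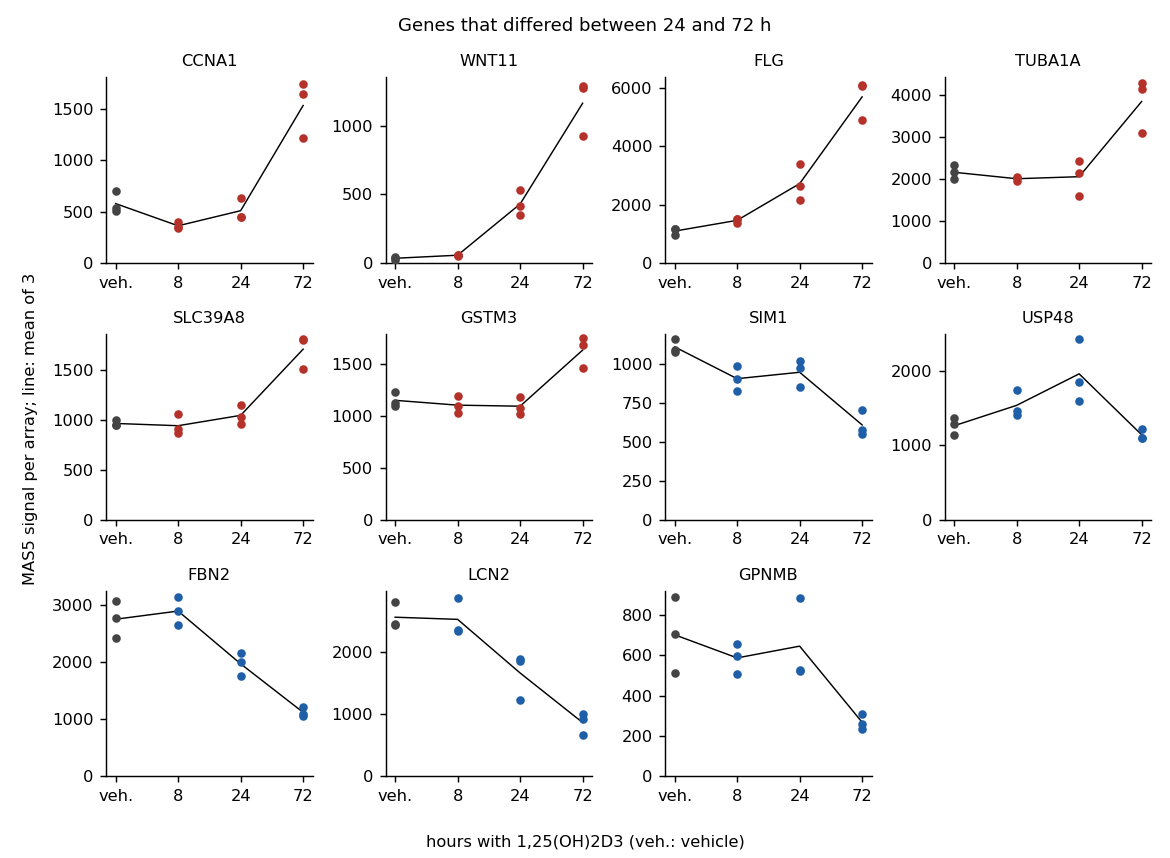
MAS5 signals (vertical axes, from 0) of the 11 genes that differed between 24 and 72 h, in vehicle and after 8, 24 and 72 h (horizontal axes), 1 point for each of 3 arrays and a line through the means; red marks genes higher and blue genes lower at 72 h than at 24 h. CCNA1 rises from 509 ± 109 at 24 h to 1535 ± 282 at 72 h, and FBN2 falls from 1966 ± 206 to 1119 ± 76.4.

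Called genes were also set against their neighbours. Among 2939 pairs of tested genes that follow each other directly on a chromosome in RefSeq's order, 34 had both members called: 23 rose together, 8 fell together and 3 moved apart. Of all genes tested 6.84% were called, and whether 34 pairs exceed what that share alone would give was not tested. A gene called with both its neighbours, such as KLK6 or IFITM1, counts in more than 1 pair. Beside the kallikrein, collagen, IFITM, chemokine, serpin and tubulin neighbours above, LAMB3 and G0S2 on chromosome 1 and the small GTPase gene RAB38 and CTSC on chromosome 11 rose together, and MBIP and NKX2-1 on chromosome 14 fell together. These pairs were chosen after their values were seen. Probe sets that read more than 1 relative were not looked for, so their part in such pairs was not tested.

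Promoter windows of the called genes were searched for the vitamin D response element of direct repeats with 3 bases between them. It was found in 1 of 229 promoters of genes that rose (0.437%), that of EPHA1, and in 0 of 168 of genes that fell, against 0.183% of the promoters of genes tested and 0.238% of 27305 RefSeq promoters on either strand. No match was found in the windows of CAMP, KLK6, TRPV6, SERPINB7, FLG and PALMD. CYP24A1, WNT11, GADD45A and CALCB had no promoter window and were not searched. The AP-1 element TGANTCA (N is any base) was found in 7.86% of promoters of genes that rose and 7.74% of those of genes that fell, against 4.55% of the 6003 promoters of genes tested and 7.76% of all.

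The pair of U95 arrays gave a look with other probes. Of the genes that rose on U133A, 202 were above the filter on U95, and 179 of them (88.6%) had a log2 ratio of 72 h to vehicle above 0 there, with a median of 0.56. Of those that fell and were above the filter, 125 (94.0%) were below 0, with a median of -0.55. Over all 4167 genes on both array types 44.5% were above and 55.5% below 0. CYP24A1 had a U95 log2 ratio of 6.05, TRPV6 of 3.67, CAMP of 2.79, FLG of 2.61 and COL4A1 of 1.53. WNT11 had 0.84 against 4.58 on U133A, CCL20 -1.20 against -3.66, and EGFR -2.61 against -0.84. RAPGEF3 (-0.64), GSTM3 (-0.60) and PSMB8 (0.15) had the opposite sign to U133A. With 1 U95 array a group these ratios have no replicate error.

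**Figure D5:**
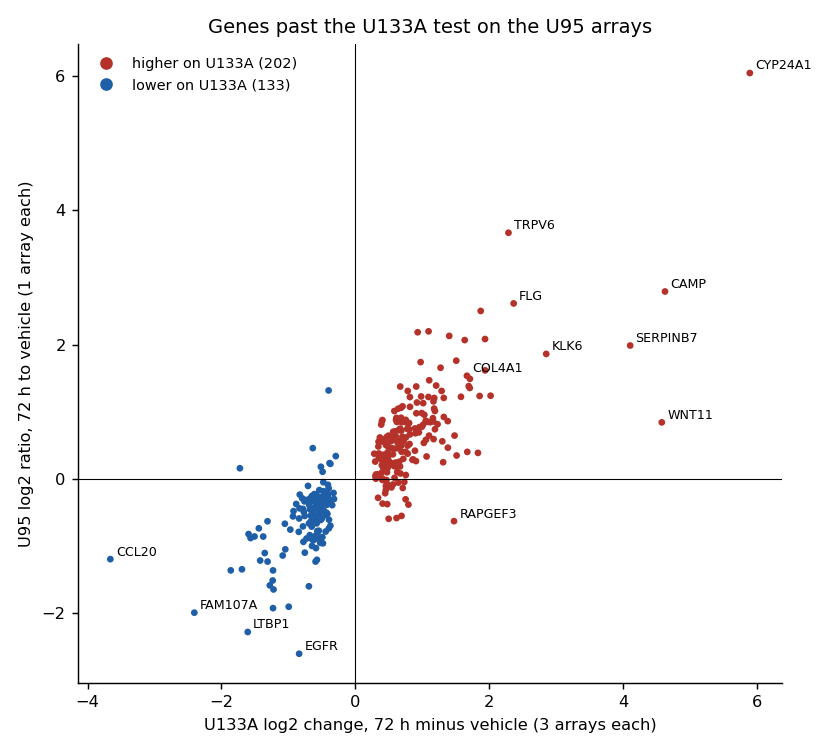
U95 log2 ratio of 72 h to vehicle (vertical axis, 1 array each) against the U133A log2 change (horizontal axis, 3 arrays each) for the genes that rose (red) or fell (blue) on U133A and were above the filter on U95. Most points share the sign on both axes, 179 of the red and 125 of the blue.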

How the data were processed

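Affymetrix U133A arrays of OVCAR3 RNA were deposited as 1 MAS5 signal per probe set (the column is an intensity on a linear scale), computed by the authors with MAS5 per the submitters' processing notes. Of 22283 probe sets, 19071 have 1 gene in GEO's platform annotation, 1043 several and 2169 none listed; the first were used, with 1 probe set per gene, that of the highest mean log2 signal. On U95, 10961 of 12626 probe sets have 1 gene. Signals were taken as log2(signal + 15.833), the 10th percentile of U133A signals (13.8739 on U95), with no further normalization. Genes under the 40th percentile of mean log2 signal were left out. lmFit and eBayes with a trend (limma 3.58.1, R 4.3.3) were fitted over all 12 U133A arrays, with 8 residual degrees of freedom, and p-values were adjusted by Benjamini-Hochberg over 7178 genes; adjusted p under 0.05 was called. Fold changes of low genes are understated by the added number. Precision is limited by the number of arrays.

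The labels call the replicates biological and the series' text speaks of 3 experiments. The study compared 8, 24 and 72 h with vehicle; here 72 h was compared with vehicle and with 24 h. The replicate numbers were checked for pairing by the deviations of same-numbered arrays from their group means. These correlated at 0.115, 0.066 and 0.216 between vehicle and 72 h, and at 0.103, 0.187 and 0.146 between 24 and 72 h. All of these values were positive but low. They were not set against those of arrays with different numbers, so they do not settle whether the numbers mark the same experiment. For both comparisons the printed values come from the fit without a block, which takes no account of any such pairing. With the number as a block, 362 genes were higher and 291 lower against vehicle, and 14 and 11 against 24 h. The members, the 42 gene lists and the tests were chosen with earlier results of these data known. Named genes are the 15 largest rises and 15 largest falls among called genes without overlap between the groups, up to 4 members of each list with the lowest p, the 5 lowest p of each direction between 72 and 24 h, and CYP24A1, GADD45A and VDR; others are said to be chosen after their values were seen. Promoter windows and gene order come from RefSeq (GRCh38.p14); promoters were found for 6003 of the tested genes, and the gene's start is at the start of the window's last 50 bases in 5041 of them. Alternatives were other added numbers, filters, normalizations, choices of probe set, fits and leaving out each array.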

Additional observations from a re-analysis of the deposited data

Results flagged for a closer look

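For 11 genes the change from vehicle at 72 h differed from that at 24 h, by the test of that difference over 12 arrays (adjusted p under 0.05 over 7178 genes). As log2 differences, 72 h minus 24 h, these were 1.56 for CCNA1, 1.41 for WNT11, 1.08 for FLG, 0.91 for TUBA1A, 0.70 for SLC39A8, 0.57 for GSTM3, -0.63 for SIM1, -0.75 for USP48, -0.80 for FBN2, -0.92 for LCN2 and -1.18 for GPNMB. With probe sets averaged the differences were -0.023 for SLC39A8 (adjusted p = 0.97) and -0.89 for FBN2 (adjusted p = 0.11). Since both changes are taken from the same 3 vehicle arrays, the vehicle arrays cancel in the difference. Groups of 3 arrays were too small to look for single outlying arrays.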

How the results depend on the processing

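Against vehicle, the counts of 277 higher and 214 lower genes stayed within 1.5 times of those values under each alternative, other than for the replicates left out of the vehicle group: leaving out single arrays gave 194 to 261 higher and 119 to 212 lower genes. Without a filter they were 246 and 190, with quantile normalization 292 and 224, with median centring 240 and 153, with every probe set tested on its own 355 and 305 of 11443 and with the replicate block 362 and 291. Against 24 h, where 6 were higher and 5 lower, there were 3 and 1 without a filter, 5 and 1 with quantile normalization, 3 and 2 with median centring, 4 and 1 with probe sets averaged, 5 and 2 with every probe set on its own, 4 and 1 with only the 6 arrays compared, 14 and 11 with the replicate block and 3 and 1 in eBayes without a trend, and leaving out single arrays gave 2 to 5 and 1 to 8. Of 165 named genes that were called, 116 passed under every one of the 17 alternatives in which they were tested, and 0 reversed. Alternatives whose filter left a gene out, such as the stricter filter for WNT11, were not counted for that gene. Without 1 array 44 lost the call. Of 52 named genes that were not called, 20 passed under some alternative and 6 reversed: DCN (0.031 with quantile normalization, 0.025 with median centring and -0.098 to 0.16 without single arrays), TAPBP (0.28 with probe sets averaged), ITGAM (-0.076 with probe sets averaged, -0.083 to 0.098 without single arrays), ENG (-0.24 and -0.044 to 0.092), COL1A1 (-0.15 to 0.24) and RAMP3 (-0.26 to 0.21). With the replicate block 13 of those not called passed, among them BNIP3 (adjusted p = 3.2e-04), RGS10 (0.0014) and IGF1 (0.020). Some list medians near 0 changed sign between scalings (calcium transport, matrix, ion channels, ovarian markers). The median of ribosomal proteins, 0.12 in the main fit, was not near 0 and became -0.0088 with quantile normalization.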
